A study of Mus musculus with 15 samples.

Results

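The genes described here are 10 genes of autophagy: the receptor Sqstm1, the ATG8-family genes Map1lc3a, Map1lc3b, Gabarapl1 and Gabarapl2, the conjugation genes Atg7 and Atg12, and Ulk1, Becn1 and Wipi1, which act when the autophagosome is started. They were chosen by name, 10 of the 55291 genes in the tables, and each passed the filter on low values in all 3 comparisons, with at least 423 reads in every library. RNA came from HY19636, a murine PDAC line isolated from a B6 mouse that carried p53 L/+ and Ptf1a-Cre, so Cre acted in the pancreas lineage and 1 line stands for all samples. In culture, 3 libraries came from cells given DON at 25 µM for 24 h, 3 from cells kept without Gln for 24 h, and 3 from control cells (CNT). In mice, 3 libraries came from orthotopic HY19636 tumors of animals given DRP-104, a prodrug of DON, and 3 from tumors of animals given vehicle (VEH). Hosts were female C57BL/6J mice of 8 to 10 weeks with an intact immune system, DRP-104 was injected every day at 3 mg per kg in 2 cycles, each with 5 days of dosing and 2 of rest, and tumors were taken 21 days after transplantation. The labels do not say whether replicate cultures were grown separately, so p-values measure the spread between these libraries, which may be technical in the cultures.

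Autophagy encloses cytoplasm in a double membrane, the autophagosome, and delivers it to the lysosome, where the breakdown products can be used again. The ULK1 kinase complex starts the process, a lipid kinase complex that holds BECN1 marks the membrane, WIPI proteins bind that lipid, and a ubiquitin-like cascade with ATG7 and ATG12 attaches ATG8 proteins to the membrane. Receptors such as SQSTM1, also known as p62, tie cargo to the ATG8 proteins and are degraded with it. PDAC cells are known for high autophagy. RNA gives the amount of each transcript and does not give autophagic flux.

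Promoters of 4 of these genes are shown because Sqstm1 and Gabarapl2 rose in both culture treatments, Map1lc3b went in opposite directions, and Atg7 was the 1 gene among them with an E-box in the window searched. RefSeq (GRCm38.p6) held a promoter for 7 of the 10 genes (Sqstm1, Gabarapl1, Gabarapl2, Map1lc3b, Wipi1, Ulk1 and Atg7), and Map1lc3a, Atg12 and Becn1 had no entry. Each line gives the 150 bases before the start of transcription, 5′ to 3′ on the strand of the gene, and capitals mark the E-box CACGTG, the core that TFEB, TFE3 and MITF bind.
Sqstm1 promoter (chr11:50210821-50210970, minus strand): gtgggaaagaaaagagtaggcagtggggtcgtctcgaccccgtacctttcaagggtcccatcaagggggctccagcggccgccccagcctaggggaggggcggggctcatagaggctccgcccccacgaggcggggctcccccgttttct
Gabarapl2 promoter (chr8:111940553-111940702, plus strand): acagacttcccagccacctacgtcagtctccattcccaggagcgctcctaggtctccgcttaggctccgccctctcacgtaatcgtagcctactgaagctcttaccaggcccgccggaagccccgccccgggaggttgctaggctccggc
Map1lc3b promoter (chr8:121590288-121590437, plus strand): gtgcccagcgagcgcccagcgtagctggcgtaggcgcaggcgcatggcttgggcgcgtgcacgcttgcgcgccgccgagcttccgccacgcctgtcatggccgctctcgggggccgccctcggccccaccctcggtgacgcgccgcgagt
Atg7 promoter (chr6:114670946-114671095, plus strand): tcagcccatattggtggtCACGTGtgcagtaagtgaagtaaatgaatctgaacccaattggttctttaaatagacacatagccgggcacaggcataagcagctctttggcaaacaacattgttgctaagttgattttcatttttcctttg
The E-box of Atg7 begins at position -132 from the RefSeq start, and that start lies inside the Atg7 gene, downstream of the gene start in the FPKM table. On both strands of the whole RefSeq window, which runs on past the start, CACGTG was present in 7.15% of all 32851 promoters and in 9 of the 79 promoters of the wider autophagy list described further down. The antioxidant response element TGACNNNGC, the core read by NRF2, was present in 12.4% of all promoters and in 12 of the 79, among them Map1lc3b, where it begins at position 4, outside the stretch shown. TGATGNAA, the element that ATF4 binds with CEBP partners, was present in 3.97% of all promoters and in 0 of the 79. These are matches of letters, and a window without a match says nothing of the factor.

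The 9 libraries from cultures held 25.2 to 48.2 M reads each, and the 6 from tumors 16.3 to 20.7 M. Values are normalized counts, which are gene counts divided by a size factor for each library within a table, so the same 3 control libraries have slightly different values beside DON and beside Gln-free cells. Epithelial keratin and adhesion markers (Krt8, Krt18, Krt19, Epcam and Cdh1) were expressed in every library. Their sum ran from 328447 to 424061 in control cells and from 108927 to 117157 after DON. It ran from 316763 to 399647 in the controls beside Gln-free cells and from 133319 to 146613 without Gln. In each culture comparison 5 of 5 were called, where 9226 of 13556 genes tested were called after DON and 9292 of 13390 without Gln. In all 9 culture libraries Col1a2, Dcn and Lum of the fibroblast markers, Cd3e and Cd3g of the T cell markers, Adgre1 of the macrophage markers, Cpa1, Hbb-bs and all 4 islet markers were at 0. Other genes of these lists were not. T cell markers summed to 87.0 to 115.7 in control cells and 55.4 to 63.3 after DON. Without Gln they summed to 113 to 166, against 83.9 to 109 in controls. Endothelial markers summed to 59.9 to 122.8 in control cells and 18.5 to 26.9 after DON. Acinar, erythroid and fibroblast markers also had sums above 0 in control cells. Sums of this size thus occur in cells of 1 line. The sum of macrophage markers was 802 to 847 after DON and 64.9 to 97.4 in controls, and it lay in Cd68, a lysosomal membrane protein, at 798 to 847 against 47.4 to 79.9. Without Gln the macrophage sum went the other way, at 19.6 to 38.6 against 62.6 to 92.0 in controls. In bulk samples, fewer cells of a type and less RNA per cell cannot be told apart.

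Levels differed widely between the genes. Per kilobase of gene length, control cells held 8148 ± 1020 normalized counts of Sqstm1 (SD, n = 3), the highest of the 10, and 1751 ± 175 of Map1lc3b. Gabarapl2 followed at 1325 ± 93.3, Gabarapl1 at 829 ± 84.5 and Map1lc3a at 712 ± 66.2 per kilobase, and the ranges of the last pair overlapped. Becn1 (468 ± 44.6), Atg12 (435 ± 25.4), Atg7 (386 ± 49.5) and Ulk1 (335 ± 43.8) formed a run in which each gene overlapped its neighbor in at least 1 library, and Wipi1 was lowest at 266 ± 17.7 per kilobase.

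After DON, 6 of the 10 genes rose and 2 fell, and Sqstm1 rose most, to 3.42 times the control mean. Without Gln, 3 rose and 2 fell, and Sqstm1 rose to 3.43 times the control mean. In tumors given DRP-104, 0 of the 10 were called. Of all genes tested, 33.3% were called higher and 34.7% lower after DON, and 34.5% were called higher and 34.9% lower without Gln, against 0.0% called in tumors. A count of 6 or 3 rising genes among 10 is therefore read beside a background in which about as many genes rose as fell. Over the 10 genes the log2 fold change had a median of 0.48 with DON and 0.01 without Gln, beside 0.023 and 0.0059 over all genes tested. Groups did not overlap for 9 of the 10 genes after DON and 5 of the 10 without Gln, where 71.9% and 73.6% of all genes did not overlap. Calls are from limma on log2(normalized count + 1) across all genes with a Benjamini-Hochberg adjusted p under 0.05, and folds on that scale. An exact permutation test of 3 against 3 libraries, two-sided, cannot go below p = 0.1, the value it gave for each gene without overlap.

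**Figure D1:**
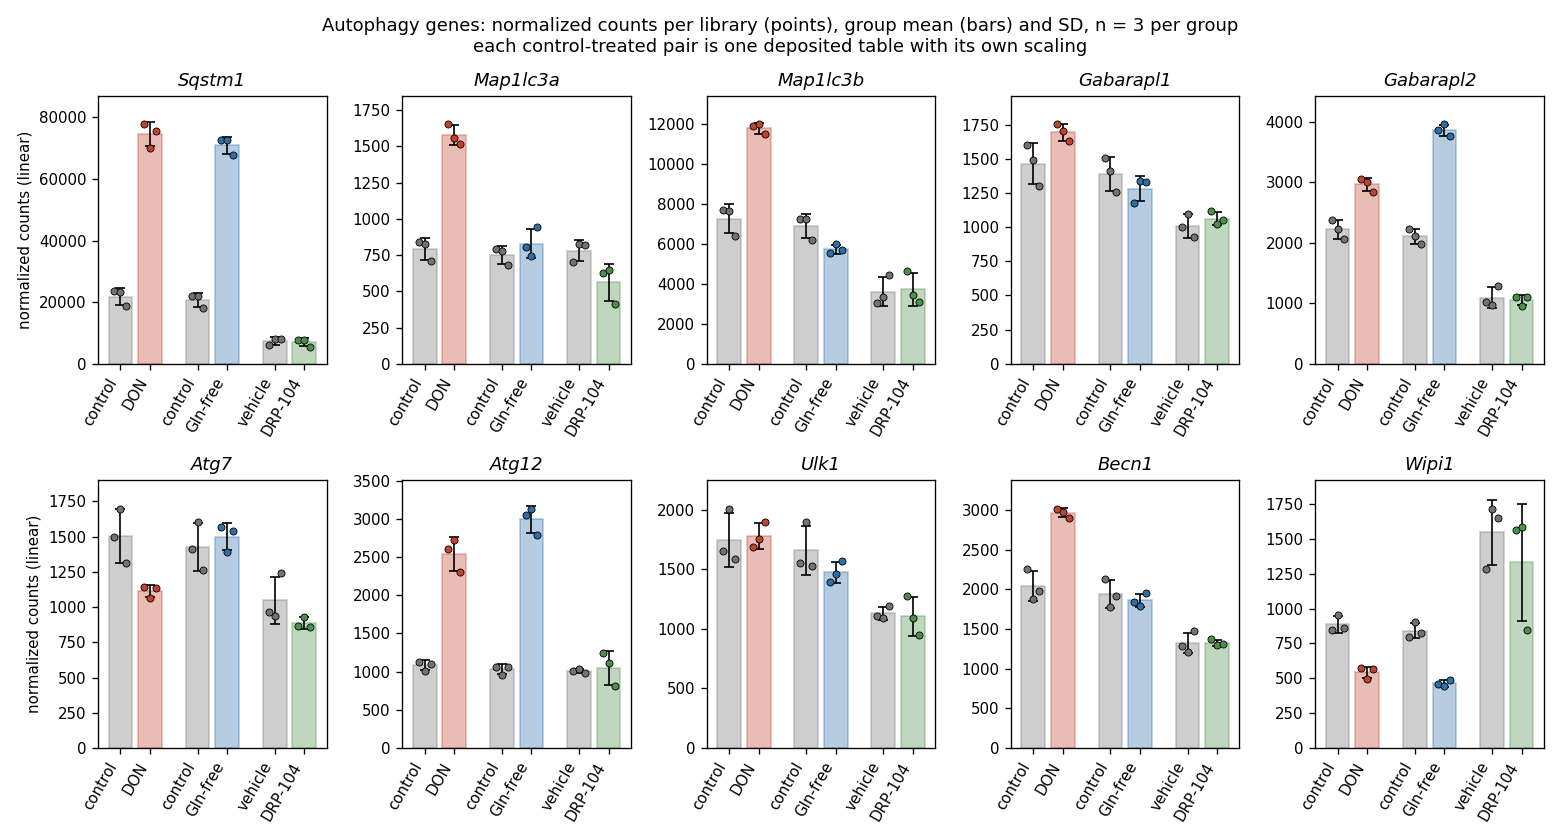
Normalized counts (linear axis from 0) of the 10 genes in each library, as points beside the group mean (bar) and SD, with n = 3 per group; each pair of control and treated groups is 1 table with its own scaling. Sqstm1 and Atg12 lie far above their controls after DON and without Gln, Map1lc3b, Map1lc3a and Becn1 are above their controls after DON, and treated and vehicle tumors overlap for all genes but Map1lc3a and Atg7.

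Sqstm1 was the receptor among the 10 genes, and it was called higher in both culture treatments. DON cells had 77754, 70163 and 75723 normalized counts and the control cells beside them 23519, 23183 and 18638. Every DON library was above every control (log2 fold change 1.78, SE 0.11, adjusted p = 5.71e-09). Gln-free cells had 72589.9, 72534 and 67832, and the same controls, as scaled there, 22165, 21898 and 17975. These groups also did not overlap (log2 fold change 1.79, SE 0.10, adjusted p = 8.31e-09). Compared directly on a common scale, Sqstm1 averaged 73313 ± 3720.2 in DON cells and 71823 ± 2759.8 in Gln-free cells. The difference, Gln-free minus DON, was -0.029 (95% CI -0.23 to 0.17, adjusted p = 0.796), which was not called. It turned under quantile normalization, where Gln-free cells were higher by 0.28 (adjusted p = 0.00766). Reads of the antisense gene Mrnip, which overlaps Sqstm1 in 750 bases, reached at most 90.5 normalized counts in these tables.

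Among the ATG8 genes, whose products become tied to the autophagosome membrane, the treatments went apart. Map1lc3b, the gene of LC3B, had 11886, 11965 and 11471 normalized counts in DON cells and 7689, 7637 and 6407 in controls. All DON libraries were higher (log2 fold change 0.71, SE 0.09, adjusted p = 1.25e-05). In Gln-free cells it had 5537, 5968 and 5664, against 7246, 7213.5 and 6179.5 in controls. All Gln-free libraries were lower, by a small margin (log2 fold change -0.26, SE 0.09, adjusted p = 0.0165). This fall was no longer called when any of 4 libraries was left out, Gln-free 1 (-0.24, adjusted p = 0.0698) or 3 (-0.26, adjusted p = 0.0531) and control 1 (-0.22, adjusted p = 0.0659) or 2 (-0.23, adjusted p = 0.061). On the common scale Map1lc3b averaged 11580.0 ± 270.0 in DON cells and 5791 ± 225 in Gln-free cells. The difference of -1.0 (95% CI -1.17 to -0.83, adjusted p = 3.37e-08) was the largest among the 10 genes between the treatments. Near-identical pseudogenes of Map1lc3b reached at most 25 normalized counts. The antisense neighbor Zcchc14, which overlaps Map1lc3b in 58 bases, reached 4356. Gm20388, a protein-coding gene model on the same strand, covers 8400 bases of Map1lc3b and was not analysed here, so the values of Map1lc3b are uncertain as far as reads could be split between them.

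Map1lc3a, the gene of LC3A, had 1652, 1559 and 1518 normalized counts in DON cells and 843, 825.5 and 707 in controls. It was higher in every DON library (log2 fold change 1.00, SE 0.11, adjusted p = 1.48e-06). In Gln-free cells it had 805, 742 and 941, against 794, 779.7 and 682 in controls. Those groups overlapped and the gene was not called (log2 fold change 0.14, 95% CI -0.12 to 0.39, adjusted p = 0.316). The direct difference between Gln-free and DON cells was -0.89 (95% CI -1.12 to -0.67, adjusted p = 2.66e-06). Map1lc3a and Map1lc3b were thus both lower without Gln than after DON, with averages of 1550.2 ± 66.1 in DON cells and 839 ± 103 in Gln-free cells for Map1lc3a.

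Gabarapl2, which codes for GATE-16, was the ATG8 gene that rose in both treatments. DON cells had 3062, 3001 and 2840.0 normalized counts and their controls 2372, 2235 and 2059.6 (log2 fold change 0.42, SE 0.09, adjusted p = 0.00102). Gln-free cells had 3862, 3962 and 3776 and their controls 2235, 2112 and 1986 (log2 fold change 0.87, SE 0.08, adjusted p = 1.03e-06). Neither treatment overlapped its controls. Gln-free cells were the higher of the pair when compared directly, by 0.42 (95% CI 0.26 to 0.58, adjusted p = 1.64e-04), the direction opposite to that of the LC3 genes. Gabarapl1, the other GABARAP-like gene, ran from 1626 to 1751 in DON cells, 1302 to 1597 in the controls beside them, and 1174 to 1340.2 in Gln-free cells. It was not called against controls in either treatment (log2 fold change 0.21, 95% CI -0.0043 to 0.43, adjusted p = 0.0759 after DON, and log2 fold change -0.11, 95% CI -0.34 to 0.11, adjusted p = 0.333 without Gln). After DON it was called without control library 1 (0.28, adjusted p = 0.046) and under quantile normalization (0.29, adjusted p = 0.0211). Between the treatments Gabarapl1 was lower without Gln, with a log2 difference of -0.36 (95% CI -0.56 to -0.16, adjusted p = 0.00315). Gabarap, the remaining ATG8 gene and not one of the 10, rose after DON (0.84, adjusted p = 4.90e-06) and had a log2 fold change of 0.13, adjusted p = 0.224 without Gln. Of all 5 ATG8 genes, 4 rose after DON and 1 rose and 1 fell without Gln.

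The conjugation genes Atg12 and Atg7 did not move together. ATG12 is the ubiquitin-like protein joined to ATG5, and its gene had 2599.9, 2726 and 2299 normalized counts in DON cells against 1132, 1012 and 1106 in controls. Gln-free cells had 3053, 3130.5 and 2791 against 1067, 955.5 and 1067. Atg12 was higher in all treated libraries, after DON (log2 fold change 1.23, SE 0.10, adjusted p = 1.01e-07) and without Gln (log2 fold change 1.54, SE 0.09, adjusted p = 1.71e-08). The rise was larger without Gln, by 0.28 (95% CI 0.089 to 0.47, adjusted p = 0.0125). That difference was not called without DON library 3 (0.21, adjusted p = 0.0779), without Gln-free library 2 (0.24, adjusted p = 0.06) or under quantile normalization (0.18, adjusted p = 0.0905). Atg7 codes for the enzyme that activates both ATG12 and the ATG8 proteins. It had 1146, 1063 and 1136 normalized counts in DON cells and 1496.5, 1698 and 1313 in controls. DON cells were all lower (log2 fold change -0.42, SE 0.11, adjusted p = 0.00368). Gln-free cells had 1568, 1389.7 and 1541 and overlapped the controls at 1410.3, 1604 and 1267 (log2 fold change 0.076, 95% CI -0.15 to 0.31, adjusted p = 0.538). Between the treatments Atg7 was higher without Gln, by 0.47 (95% CI 0.26 to 0.68, adjusted p = 6.98e-04).

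Of the genes that start the autophagosome, Becn1 changed with DON and Wipi1 with both treatments. Becn1, which codes for a scaffold of the VPS34 lipid kinase complexes, had 3015, 2981 and 2900.5 normalized counts in DON cells and 2259, 1882 and 1985 in controls, with no overlap (log2 fold change 0.54, SE 0.09, adjusted p = 1.62e-04). In Gln-free cells it had 1842, 1789 and 1955 against 2129, 1778 and 1914, which overlapped (log2 fold change -0.056, 95% CI -0.26 to 0.15, adjusted p = 0.612). Becn1 was lower in Gln-free than in DON cells, with a log2 difference of -0.63 (95% CI -0.81 to -0.45, adjusted p = 7.69e-06). Cntd1, on the opposite strand across much of Becn1, reached at most 15 normalized counts.

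Wipi1, which codes for a protein that binds the lipid made by VPS34, was the 1 gene of the 10 that fell in both treatments. It had 571, 499 and 564 normalized counts in DON cells against 846, 954 and 859 in controls (log2 fold change -0.70, SE 0.11, adjusted p = 9.36e-05). Gln-free cells had 458.5, 444 and 488 against 798, 901 and 828 (log2 fold change -0.86, SE 0.11, adjusted p = 1.35e-05). No treated library reached a control. The treatments differed from each other by -0.19 (95% CI -0.41 to 0.035, adjusted p = 0.129), which was not called. Ulk1, the gene of the initiating kinase, ran from 1684 to 1896 in DON cells and 1582 to 2007 in their controls, and from 1395 to 1570.5 in Gln-free cells and 1526 to 1896 in theirs. Both treatments overlapped the controls, and Ulk1 was not called in either (log2 fold change 0.033, 95% CI -0.20 to 0.26, adjusted p = 0.796 after DON, and log2 fold change -0.16, 95% CI -0.39 to 0.065, adjusted p = 0.184 without Gln). Without control library 3 the fall without Gln was called (-0.22, adjusted p = 0.0486). The difference between the treatments, -0.23 (95% CI -0.44 to -0.019, adjusted p = 0.054), was just outside the threshold. It was called without control library 2 (-0.23, adjusted p = 0.0263), without control library 3 (-0.23, adjusted p = 0.0255) and without Gln-free library 3 (-0.27, adjusted p = 0.0484). It was also called by edgeR on recovered reads (-0.25, adjusted p = 0.0409), under quantile normalization (-0.31, adjusted p = 0.0117) and with a mean value of at least 50 (-0.23, adjusted p = 0.04996).

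**Figure D2:**
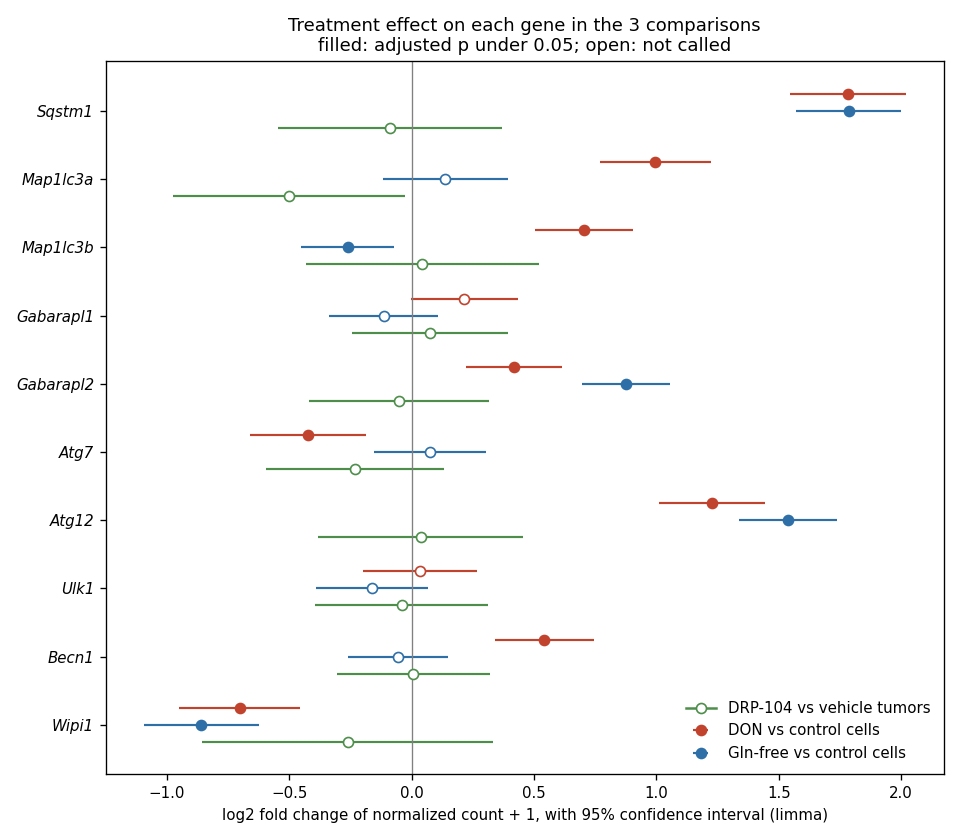
Log2 fold change (horizontal axis, on log2 of the normalized count + 1) of each gene with its 95% confidence interval from limma, for DON cells, Gln-free cells and DRP-104 tumors against their own controls; filled points had an adjusted p under 0.05. Sqstm1 sits at 1.78 and 1.79 in the cultures and at -0.09 in tumors, while Map1lc3b is at 0.71 after DON and -0.26 without Gln.

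Compared directly, Gln-free and DON cells differed in 7 of the 10 genes, and 63.3% of all genes tested were called in the same comparison. Gabarapl2, Atg7 and Atg12 were higher without Gln, and Map1lc3a, Map1lc3b, Gabarapl1 and Becn1 were lower. Sqstm1, Wipi1 and Ulk1 were not called. DON and Gln-free cells share their 3 control libraries, so likeness between the folds against control is in part likeness of the same controls, and the direct comparison does not use them other than for scaling and the common spread.

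In tumors, DRP-104 was followed by no call among the 10 genes. Limma gave 1 of the 10 an unadjusted p under 0.05 (Map1lc3a), and edgeR and DESeq2 on recovered reads also called 0. Of all genes tested, limma called 0 (775 at an unadjusted p under 0.05), edgeR 0 and DESeq2 70. Map1lc3a had 624.5, 644 and 415 normalized counts in DRP-104 tumors and 702, 825 and 818 in vehicle tumors. Every DRP-104 tumor was below every vehicle tumor, and the difference did not pass the test (log2 fold change -0.50, 95% CI -0.97 to -0.029, adjusted p = 0.916). Atg7 had 863, 933 and 863 in DRP-104 tumors against 963, 939 and 1241 in vehicle tumors, again without overlap (log2 fold change -0.23, 95% CI -0.59 to 0.13, adjusted p = 0.918). These were the 2 genes of the 10 without overlap, and 10.6% of all genes tested had none. In the FPKM table, whose tumor columns do not follow those of the normalized counts and were used only by group, Map1lc3a was at 37.1 ± 2.52 FPKM with DRP-104 and 31.6 ± 2.51 with vehicle, a log2 difference of 0.22 (95% CI -0.055 to 0.5, adjusted p = 0.63), which has the opposite sign.

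For the other genes, Sqstm1, Atg12 and Wipi1 among them, the tumor groups overlapped. Sqstm1 had 7700.4, 7701 and 5484 normalized counts in DRP-104 tumors and 5971, 8116 and 8075 in vehicle tumors (log2 fold change -0.089, 95% CI -0.55 to 0.37, adjusted p = 0.969). DRP-104 tumor 3 was lowest of the 6, and without it the fold changed sign to 0.074. Atg12 had 1237, 1113 and 806 against 1014, 1033 and 979.9. The DRP-104 tumors lay on both sides of the vehicle tumors (log2 fold change 0.037, 95% CI -0.38 to 0.46, adjusted p = 0.984). Wipi1 had 1564, 1583 and 847 against 1282, 1715 and 1646 (log2 fold change -0.26, 95% CI -0.86 to 0.33, adjusted p = 0.927). Here DRP-104 tumor 3 stood apart below the other 5 tumors, and the fold without it was 0.036. Gabarapl2 (-0.051, 95% CI -0.42 to 0.32), Map1lc3b (0.044, 95% CI -0.43 to 0.52), Gabarapl1 (0.076, 95% CI -0.24 to 0.39), Ulk1 (-0.04, 95% CI -0.39 to 0.31) and Becn1 (0.0062, 95% CI -0.31 to 0.32) had log2 fold changes near 0, with adjusted p from limma of 0.955 to 0.999.

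DRP-104 tumor 3 had the lowest value of the 6 tumors for 6 of the 10 genes (Sqstm1, Map1lc3a, Wipi1, Ulk1, Atg7 and Atg12) and the highest for 0. The share of all genes for which this tumor was lowest was not computed, so the count is not read as particular to these genes. The same tumor had a summed level of T cell markers (Cd3e, Cd3g, Cd8a, Lck and Trac) of 1160, against 35.8 to 70.6 in the other 5. Fibroblast markers summed to 11858 to 20749 in DRP-104 tumors and 25264 to 48061 in vehicle tumors, and endothelial markers to 962 to 1367 and 1619 to 1841, in both cases lowest in DRP-104 tumor 3. Epithelial markers summed to 109688 to 145685 with DRP-104 and 97999.7 to 139093 with vehicle. Macrophage markers summed to 1893 to 4882 with DRP-104 and 2654 to 3434 with vehicle. DRP-104 tumor 3 was the highest of the 6 for both, and the lowest for erythroid markers, which summed to 287 to 846 with DRP-104 and 658 to 1831 with vehicle. Acinar markers summed to 85.4 to 390.3 and 132 to 993, islet markers to 149 to 674 and 72.4 to 304 and muscle markers to 140.2 to 238 and 121 to 648. No marker of these lists passed the test in tumors, 0 of them were at 0 in all 6 tumors, and their part in the values of the autophagy genes was not tested. Without DRP-104 tumor 3 the number of the 10 genes called in tumors was still 0.

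**Figure D3:**
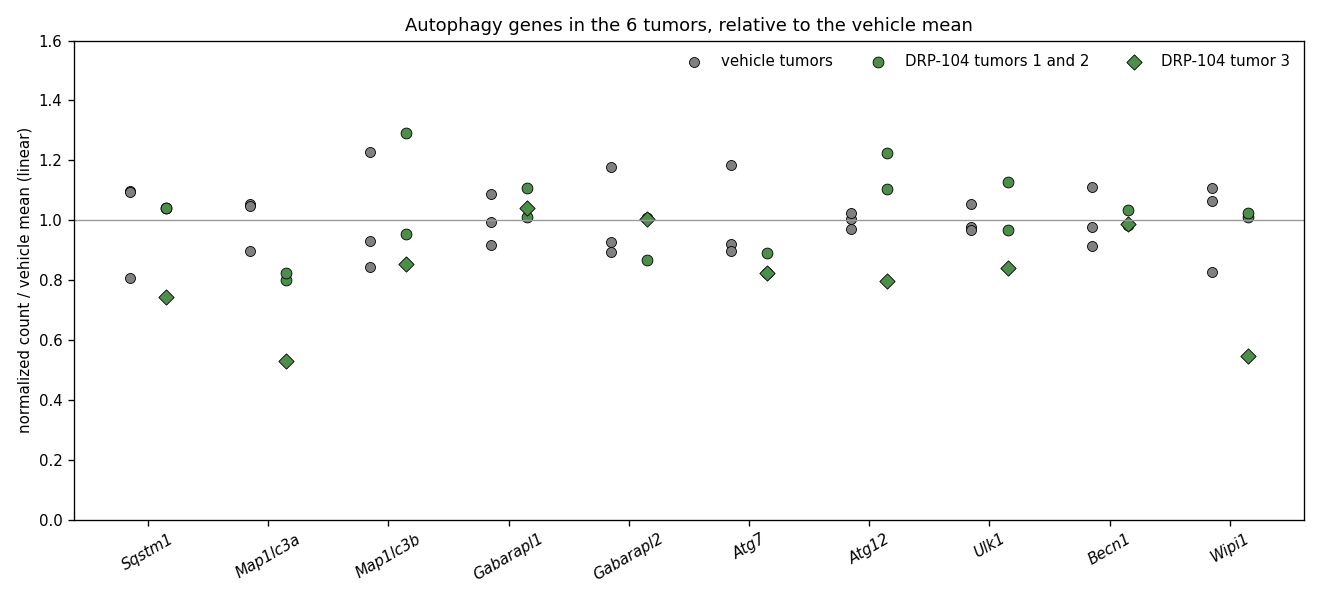
Normalized count of each gene in the 6 tumors divided by the mean of the vehicle tumors (linear axis from 0); circles stand for single tumors and diamonds for DRP-104 tumor 3. DRP-104 tumor 3 is lowest for 6 of the 10 genes, a count for which the share of all genes was not computed. Of the 10, only Map1lc3a and Atg7 have all DRP-104 tumors below all vehicle tumors.

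The FPKM table gave the level of each gene in tumors by length. With vehicle, Sqstm1 was at 135 ± 17.2 FPKM and Map1lc3b at 41.6 ± 0.952, and the other 8 genes lay between 12.4 ± 0.897 for Becn1 and 31.8 ± 0.341 for Gabarapl1. With DRP-104, Sqstm1 was at 139 ± 12.7, Map1lc3b at 38 ± 5.94, Becn1 at 14.2 ± 1.32 and Gabarapl1 at 29.5 ± 2.55 FPKM. Sqstm1 and Map1lc3b were thus the top pair by length both in control cells and in vehicle tumors. In this table too, limma on log2(FPKM + 1) called 0 of the 10 genes.

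Whether DRP-104 in tumors and DON in cells acted to different degrees was tested as the difference of the effects, each against its own controls. Of the 10 genes, 5 were called, all with the lower effect in tumors, and 33.1% of all genes tested were called in this comparison. The difference was -1.87 (95% CI -2.38 to -1.36, adjusted p = 6.32e-05) for Sqstm1, -1.50 (95% CI -1.99 to -1.0, adjusted p = 2.90e-04) for Map1lc3a, -1.19 (95% CI -1.63 to -0.75, adjusted p = 6.80e-04) for Atg12, -0.54 (95% CI -0.87 to -0.21, adjusted p = 0.0162) for Becn1 and -0.66 (95% CI -1.16 to -0.16, adjusted p = 0.042) for Map1lc3b. For Sqstm1 the interval of the tumor effect (95% CI -0.55 to 0.37) and that of the culture effect after DON (95% CI 1.55 to 2.02) lay apart. The call for Map1lc3b was lost when any 1 of 10 of the 12 libraries was left out, with adjusted p up to 0.103 (without vehicle tumor 3), and it held without DRP-104 tumor 1 and without vehicle tumor 1.

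Gabarapl2, with a difference of -0.47 (95% CI -0.85 to -0.094, adjusted p = 0.0534), was near the threshold, and it was called without DRP-104 tumor 1 (-0.51, adjusted p = 0.0475), DRP-104 tumor 3 (-0.5, adjusted p = 0.0416) or vehicle tumor 2 (-0.54, adjusted p = 0.0345). Wipi1, with a difference of 0.44 (95% CI -0.19 to 1.07, adjusted p = 0.272), was called without DRP-104 tumor 3 (0.74, adjusted p = 0.00792). Ulk1, Atg7 and Gabarapl1 were not called, with differences of -0.073 (95% CI -0.47 to 0.33, adjusted p = 0.792), 0.19 (95% CI -0.22 to 0.60, adjusted p = 0.465) and -0.14 (95% CI -0.49 to 0.21, adjusted p = 0.541). The cells and tumors differ in dose, route, time and cellular makeup, and these cannot be told apart from the compound.

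**Figure D4:**
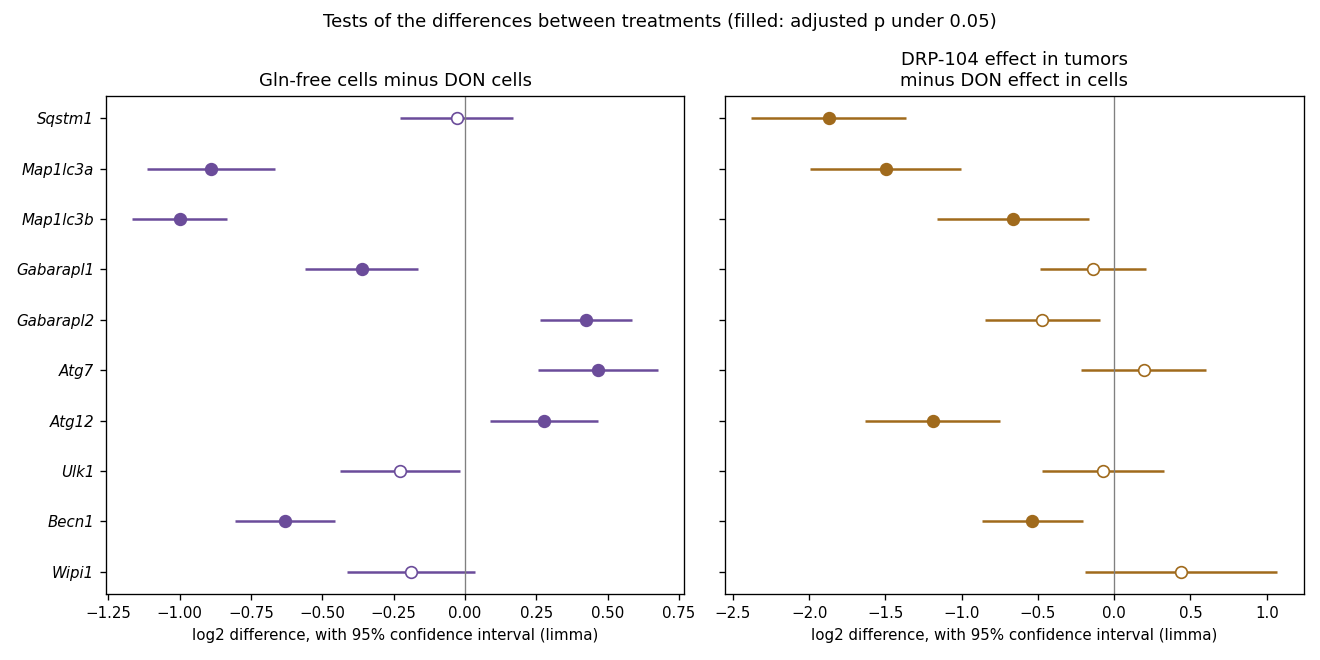
Left, the log2 difference of Gln-free minus DON cells; right, the effect of DRP-104 in tumors minus that of DON in cells; bars are 95% confidence intervals from limma and filled points had an adjusted p under 0.05. Map1lc3b, Map1lc3a and Becn1 lie furthest below 0 on the left, and Sqstm1, Map1lc3a and Atg12 on the right.

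The wider autophagy list, 70 genes by role with these 10 among them, places them in their pathway. After DON, 69 were tested, 39 rose and 8 fell, where 33.3% of all genes tested rose and 34.7% fell. Without Gln, 68 were tested, 33 rose and 15 fell, beside 34.5% and 34.9% of all genes. The median log2 fold change of the list was 0.42 after DON and 0.20 without Gln, against 0.023 and 0.0059 for all genes. In tumors 69 were tested and limma called 0 (2 at an unadjusted p under 0.05, Map1lc3a and Retreg1), as did edgeR and DESeq2. In both cultures 28 genes rose, Sqstm1, Gabarapl2 and Atg12 among them, and 6 fell: Wipi1, the mitophagy receptor Bnip3, the lipid transfer gene Atg2a, Atg9b, the lysosomal adaptor Plekhm1 and the transcription factor Tfeb. Ccpg1 was not among the genes tested in any comparison. These counts share the control libraries. For pairs of directions, here and in the next paragraph, the share of all genes was not computed. Whether such counts differ from that share was not tested.

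Map1lc3b was 1 of 3 list genes called higher after DON and lower without Gln. Its fall without Gln was no longer called when any of 4 libraries was left out. The others of the 3 were Calcoco1 (1.48, adjusted p = 2.00e-07 after DON, and -0.71, adjusted p = 0.00121 without Gln) and Tex264 (0.71, adjusted p = 1.87e-05, and -0.23, adjusted p = 0.0429), both among the receptors of the list. The direction opposite to that, lower after DON and higher without Gln, held for 0 list genes. Map1lc3a and Becn1 were among 7 genes that rose after DON and were not called without Gln, with Gabarap, Atg4a, Atg4c, Wipi2 and Zfyve1. Atg7 and Vamp8 fell after DON and were not called without Gln, and the direct difference of Atg7 between the treatments was called. Gabarapl1 and Ulk1 were among 11 genes called in neither.

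Of the roles, the receptors had the widest span of folds in both cultures. Of 15 tested, 10 rose and 1 fell after DON (33.3% and 34.7% of all genes), and 9 rose and 4 fell without Gln (34.5% and 34.9% of all genes). The same shares of all genes apply to the counts of the other roles, which hold few genes each and of which some lie near them. Stbd1, a receptor for glycogen, rose from 20.3 ± 2.15 to 705 ± 85 normalized counts after DON (log2 fold change 5.05, SE 0.20, adjusted p = 7.98e-11) and from 19.2 ± 1.86 to 1122 ± 151 without Gln (log2 fold change 5.79, SE 0.18, adjusted p = 1.05e-10). Bnip3 fell from 979.9 ± 112 to 284 ± 24.2 (log2 fold change -1.78, SE 0.13, adjusted p = 3.48e-08) and from 932 ± 116 to 84.2 ± 17.4 (log2 fold change -3.47, SE 0.17, adjusted p = 3.48e-09). Without Gln its relative Bnip3l (-0.88, adjusted p = 4.84e-06), Calcoco1 and Tex264 fell as well.

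Among the conjugation genes and ATG4 proteases, 8 of 11 rose after DON with Atg12 the largest, and Atg7 was the 1 that fell. Without Gln 6 rose and 0 fell. An unadjusted p under 0.05 was found for 8 of the 11, beside 9620 of the 13390 genes tested. Among these 8, Atg16l2 (-0.37) and Atg4d (-0.27) were lower, and neither was called. Atg3, the enzyme that passes ATG8 proteins to their lipid, rose most without Gln (log2 fold change 1.65, SE 0.13, adjusted p = 1.64e-07), ahead of Atg12. In the ULK1 complex, where Ulk1 itself was not called, its partners Atg13, Rb1cc1 and Atg101 rose in both treatments and 0 fell, and Rb1cc1, the scaffold FIP200, rose most (0.70, adjusted p = 0.00381 after DON, and 1.25, adjusted p = 4.74e-05 without Gln).

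In the lipid kinase complexes, Becn1 rose after DON with its partners Atg14, Uvrag, Nrbf2 and Ambra1, and 0 of 8 fell. Atg14 rose most (1.28, adjusted p = 3.14e-07, and 0.95, adjusted p = 1.05e-05 without Gln). Without Gln the catalytic subunit Pik3c3 fell (log2 fold change -0.98, SE 0.10, adjusted p = 2.34e-06), as did Pik3r4 (-0.37, adjusted p = 0.00724), while Atg14, Uvrag, Nrbf2, Ambra1 and Rubcn rose. In the group that holds Wipi1, 3 of 11 rose after DON (Wipi2, Atg2b and Zfyve1) and 3 fell (Wipi1, Atg2a and Atg9b), with Atg2b the largest rise (0.66, adjusted p = 2.49e-05) and Atg9b the largest fall (-0.71, adjusted p = 6.38e-04). Without Gln Wdr45b and Atg2b rose, and Wipi1, Wdr45, Atg2a and Atg9b fell, Atg2b (0.63, adjusted p = 2.12e-05) and Atg2a (-1.56, adjusted p = 8.00e-08) by most.

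Genes for fusion with lysosomes moved both ways. After DON Stx17, Snap29 and Epg5 rose and Vamp8 and Plekhm1 fell, and without Gln Ykt6 rose beside Stx17, Snap29 and Epg5, and Plekhm1 and Tecpr1 fell. Epg5, a tether, rose most in both (1.40, adjusted p = 1.42e-07, and 2.15, adjusted p = 4.65e-09). Plekhm1 fell most after DON (-0.72, adjusted p = 4.81e-05) and Tecpr1 without Gln (-2.10, adjusted p = 1.12e-08). Of the transcription factors, Tfeb, an activator of autophagy and lysosome genes, fell in both (-1.87, adjusted p = 9.98e-08 after DON, and -1.28, adjusted p = 7.47e-06 without Gln). Tfe3 and Zkscan3, a repressor of such genes, rose in both, Zkscan3 by most without Gln (0.77, adjusted p = 5.64e-05), and Foxo1 rose and Foxo3 fell without Gln. Mitf had 4, 0 and 2 reads in control cells and 28, 58 and 60 after DON, where it was called higher, and 16, 6 and 6 in Gln-free cells, where it was below the filter.

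**Figure D5:**
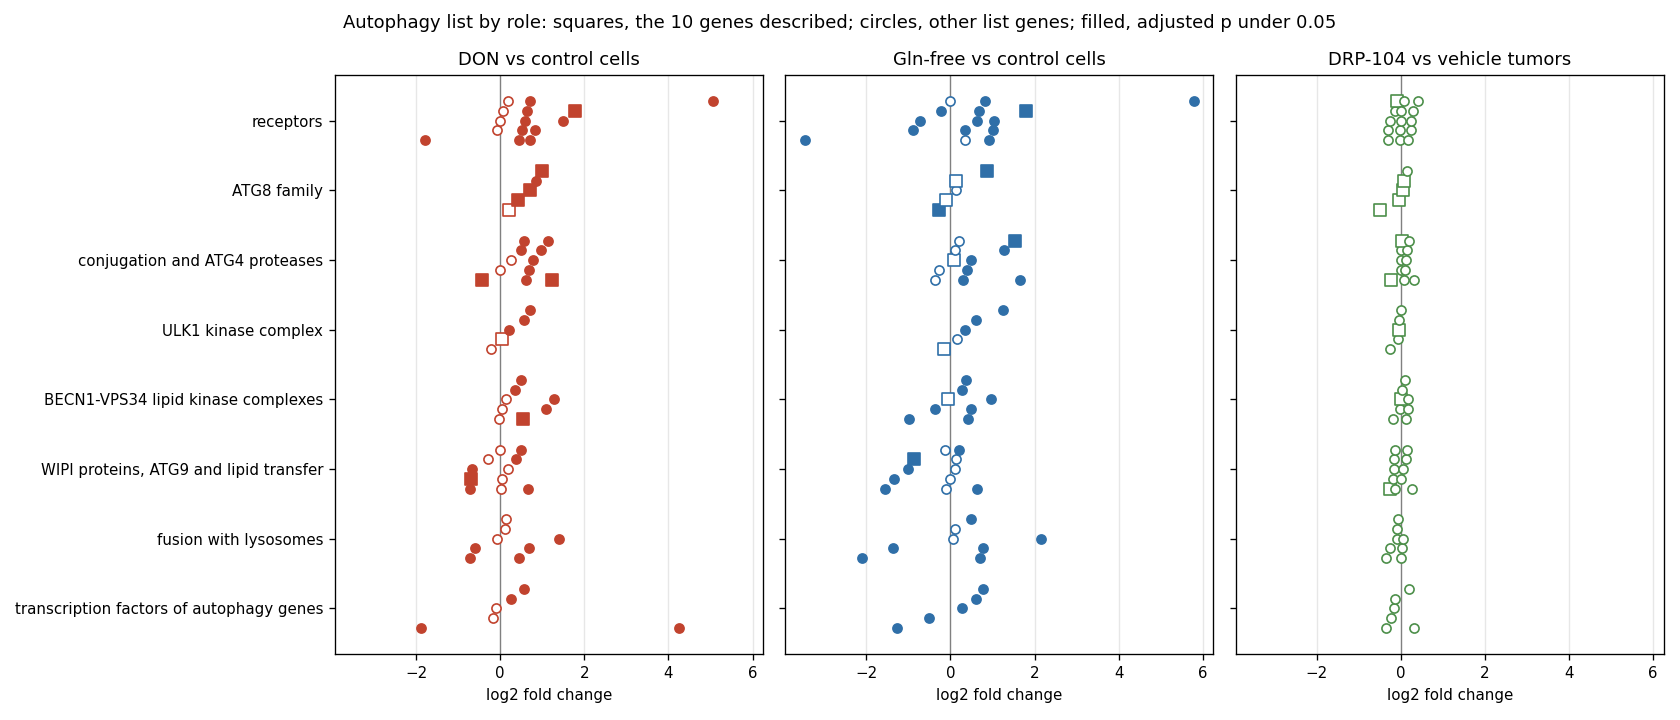
Log2 fold change (horizontal axis, the same in all panels) of the 70 autophagy list genes by role, in DON cells, Gln-free cells and DRP-104 tumors; squares are the 10 genes described, circles other list genes, and filled symbols had an adjusted p under 0.05. The culture panels spread from -1.87 to 5.05 and from -3.47 to 5.79, and the tumor panel from -0.50 to 0.42 with no filled symbol.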

How the data were processed

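RNA of 9 HY19636 cultures and 6 orthotopic tumors was measured by bulk RNA-seq. Library preparation, alignment with HISAT2 and testing with DESeq2 were done by Novogene for the authors. The submitters' processing notes also name CASAVA and STAR 2.5, and GRCm39 as the build, but gene positions in the FPKM table match GRCm38 (24919 of 34490 shared gene identifiers have the position of GENCODE M21). The counting tool, annotation and use of strand were not given in the sources used here.

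Values deposited for each comparison are a signal: counts per gene over the size factor that DESeq2 gives a library within its table. The authors' FPKM values cover tumors only. Columns of the authors' own fold changes and p-values were not used. Control columns of the culture tables carry the name of the vehicle group (VEH). They were taken as control cells (CNT) because the tables are named so, and hence have no replicate number. Whole reads were recovered from the step between values, and at least 99.9946% of values in each library were whole within 0.0051. Control reads were the same in both culture tables for 55291 of 55291 genes. Of culture values above 0, 58.8% to 60.9% were even, and 46.6% to 49.2% in tumors.

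The main test was limma 3.58.1 with a mean-variance trend (R 4.3.3). It used log2(value + 1) and kept genes whose mean reached 10, with Benjamini-Hochberg adjustment over all genes tested and calls at 0.05. Gln-free and DON cells were compared on reads of 9 libraries scaled together by size factors of the median-of-ratios method. Tumors and cells were compared by the difference of the effects on the deposited values of 12 libraries. Alternatives were edgeR 4.0.16 and DESeq2 1.42.0 on recovered reads, pseudocounts, filters, a stricter threshold, quantile normalization, the FPKM table, a replicate block and leaving out each library. The fits were first tested on simulated data in which 200 genes changed, none of them low in reads. For tumors, 32% of 2-fold and 77% of 4-fold changes were recovered, and 9.9% of calls were unchanged genes. For tumors against cells these were 45%, 93% and 9.2%. For DON against control cells they were 91%, 98% and 6.9%, and for Gln-free against control cells 86%, 97% and 5.7%. In the real cultures far more genes were called, 9226 of 13556 after DON and 9292 of 13390 without Gln. The simulated shares may therefore not hold for the culture comparisons.

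All 10 genes are named. Of the other list genes, named were Gabarap, the largest rise and fall in each role and culture comparison, and genes behind a count of 5 or fewer. Markers were those of epithelial, macrophage, fibroblast, endothelial, T, acinar, islet, muscle and erythroid cells. The 10 genes, the lists and the tests were chosen with earlier results of these data known. Sequences are from RefSeq, overlaps and near-identical transcripts (200 aligned bases, 95% identity) from GENCODE M21. Mates or reads without molecular identifiers are not independent molecules. Tables were handled with Python 3.11.15 and pandas 2.3.3, and plots with matplotlib 3.10.9. The full genotype of the line is not reported here.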

Additional observations from a re-analysis of the deposited data

Results flagged for a closer look

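For 5 of the 10 genes the effect of DRP-104 in tumors differed from that of DON in cells by a test of the difference itself (limma, adjusted over all genes tested). The log2 difference was -1.87 for Sqstm1 (adjusted p = 6.32e-05), -1.50 for Map1lc3a (adjusted p = 0.00029), -1.19 for Atg12 (adjusted p = 0.00068), -0.66 for Map1lc3b (adjusted p = 0.042) and -0.54 for Becn1 (adjusted p = 0.0162). In 5 of 5 the effect in tumors was the lower. For each of these genes 3 of 3 DON libraries were above all controls, and these values also enter the difference. After DON, 71.9% of all genes tested did not overlap. The call for Map1lc3b was lost when any 1 of 10 of the 12 libraries was left out. Of all genes tested, 33.1% were called for the difference between tumors and cells.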

How the results depend on the processing

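Of 800 values of single genes under alternatives, 735 kept direction and side of the threshold, 16 became called, 22 lost their call and 27 changed sign. The count of 735 is no measure of robustness, since some of these values could not change sign. A stricter threshold keeps the fold, and so does leaving out a control library between Gln-free and DON cells. In tumors, genes that stayed uncalled with the same sign count among the 735. The counts of called genes among the 10 ran from 8 to 9 after DON, 4 to 6 without Gln, 0 to 0 in tumors, 6 to 8 between Gln-free and DON cells and 3 to 6 for tumors against cells, over all alternatives and left-out libraries. With a threshold of 0.01, tumors against cells had 3 of the 10 genes, 17 list genes and 3007 of all genes called. DESeq2 called 70 of all genes in tumors. In the FPKM table of tumors the sign turned for Sqstm1 (0.048), Map1lc3a (0.22), Map1lc3b (-0.14), Gabarapl1 (-0.11), Ulk1 (0.16) and Atg12 (-0.24), and under quantile normalization for Sqstm1 between Gln-free and DON cells (0.28). The causes were not tested. Quantile normalization moved the median of all genes after DON to 0.13, and for tumors against cells to -0.13.

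Leaving out 1 library turned the sign for Ulk1 after DON (-0.034 to 0.14), for Atg7 (-0.0064 to 0.16) and Becn1 (-0.12 to 0.013) without Gln, for Sqstm1 between Gln-free and DON cells (-0.071 to 0.0033) and for Ulk1 in tumors against cells (-0.18 to 0.032). In tumors it did so for Sqstm1 (-0.24 to 0.074), Map1lc3b (-0.13 to 0.20), Gabarapl2 (-0.13 to 0.072), Wipi1 (-0.41 to 0.036), Ulk1 (-0.15 to 0.065), Atg12 (-0.091 to 0.22) and Becn1 (-0.056 to 0.083).

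Deviations from the group mean gave no sign of pairing by replicate number. In tumors their correlation was -0.36 to 0.038 at the same number and -0.32 to 0.46 at different numbers. Between DON and Gln-free cells it was -0.025 to 0.071 and -0.082 to 0.080. With 3 libraries per group these values cannot exclude pairing. With a replicate block, 0 of the 10 genes were called in tumors. Between Gln-free and DON cells the block was fitted without the 3 control libraries. There 8 of the 10, 49 list genes and 9237 of all genes were called, and Ulk1 became called (-0.23, adjusted p = 0.00765). The effect of the block was not separated from that of leaving out the controls. No block was fitted for the comparisons with control cells, whose columns carry no usable number.

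The spread between tumors, a median SD of 0.32 on the log2 scale against 0.16 in each culture comparison, limits what could be called there.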
